A study of Mus musculus with 4 samples.

Results

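The cyclins, the cyclin-dependent kinases (CDKs), the E2F factors, the retinoblastoma (pocket) proteins, the MCM proteins and the CDC genes carry most of the machinery that moves a cell through division. They were taken by gene symbol from the RefSeq table of protein-coding genes of the mouse build mm10 (GRCm38.p6). The families gave 84 of the 21887 genes on chromosomes 1 to 19, X and Y, namely 25 cyclins, 18 CDKs, 8 E2F factors, 9 MCM genes, 21 CDC genes and 3 pocket protein genes. Binding of the forkhead factor FOXL2 was mapped by ChIP-seq, in which antibody-bound chromatin fragments are sequenced, in whole ovaries (XX gonads) of CD1 mouse embryos at E14.5, freed of the mesonephros, with no treatment listed. There were 2 samples of FOXL2 ChIP and 2 of input, the chromatin sequenced without antibody, with 4 µg of FOXL2 antibody and a separate pool of 80 to 100 ovaries for each ChIP. Both ChIP samples share 1 deposited list of 11438 peaks, each 300 bp wide, without a height, score or value per replicate. The list holds no reads, so depth and replicate error cannot be given for any peak. A gene without a peak may still bind FOXL2 below the authors' threshold, and the cell type in which a peak arose was not measured.

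In the G1 phase, D-type cyclins with CDK4 and CDK6, and then cyclin E with CDK2, phosphorylate the pocket proteins RB1, RBL1 and RBL2 and so release E2F factors to switch on genes of DNA replication. In G1 the MCM helicase is loaded on replication origins with the help of CDC6, and CDC7 and CDC45 turn it on in S phase. Cyclin B with CDK1 drives mitosis, and the anaphase-promoting complex with CDC20 ends it. In the fetal ovary the FOXL2-positive pregranulosa cells are known to leave the cell cycle while germ cells enter meiosis. Members were sorted into 17 G1, 14 S, 14 mitotic and 16 transcription-kinase genes, and the other 23.

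Gene starts came from a RefSeq table of start windows (GRCm38.p6), each reaching from 250 bases before a start to 50 after it, which listed 78 windows for 69 of the 84 members. The bases before the start are printed below, 5′ to 3′ along the gene, for the members that unite a peak over the window with a match to a forkhead or E2F motif before the start. Mcm7, whose forkhead match under a peak lies after the start, is not printed. Ccnb2, a mitotic gene with a cell cycle homology region, and Cdc6, an E2F-matched gene without any peak, are added for comparison. Capitals mark forkhead matches (TGTTTAC or TGTTTGC), E2F matches (TTTCCCGC, TTTGGCGC, TTTCGCGC or TTTGCCGC) and matches to the cell cycle homology region, or CHR (TTTGAA or TTCGAA), on either strand.
Mcm5 (chr8:75109259-75109508, + strand): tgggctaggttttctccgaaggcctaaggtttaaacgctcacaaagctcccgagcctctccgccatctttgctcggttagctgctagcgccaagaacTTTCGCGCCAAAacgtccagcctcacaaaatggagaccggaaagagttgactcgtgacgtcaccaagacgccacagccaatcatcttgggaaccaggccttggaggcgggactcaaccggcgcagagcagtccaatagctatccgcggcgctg
Cdk1 (chr10:69352913-69353162, - strand): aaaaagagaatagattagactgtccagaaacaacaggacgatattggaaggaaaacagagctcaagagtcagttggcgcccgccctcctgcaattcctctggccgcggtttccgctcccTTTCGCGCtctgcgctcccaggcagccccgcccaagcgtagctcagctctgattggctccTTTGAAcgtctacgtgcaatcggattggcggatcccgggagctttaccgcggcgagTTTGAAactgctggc
Rbl1 (chr2:157204535-157204784, - strand): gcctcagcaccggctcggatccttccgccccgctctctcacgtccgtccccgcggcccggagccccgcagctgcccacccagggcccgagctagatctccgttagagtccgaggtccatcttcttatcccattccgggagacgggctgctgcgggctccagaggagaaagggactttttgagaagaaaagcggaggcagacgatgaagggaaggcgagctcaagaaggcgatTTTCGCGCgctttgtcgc
Ccnd3 (chr17:47504801-47505050, + strand): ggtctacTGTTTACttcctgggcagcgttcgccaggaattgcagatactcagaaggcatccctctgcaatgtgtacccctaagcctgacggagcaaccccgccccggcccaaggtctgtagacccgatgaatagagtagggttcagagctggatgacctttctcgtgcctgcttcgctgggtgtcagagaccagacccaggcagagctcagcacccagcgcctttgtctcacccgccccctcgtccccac
Ccni (chr5:93206496-93206745, - strand): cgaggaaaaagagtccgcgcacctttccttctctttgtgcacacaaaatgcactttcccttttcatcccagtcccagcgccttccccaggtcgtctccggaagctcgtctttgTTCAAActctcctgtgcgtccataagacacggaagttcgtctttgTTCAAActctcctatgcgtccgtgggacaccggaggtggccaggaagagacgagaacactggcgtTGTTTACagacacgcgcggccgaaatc
Ccnb2 (chr9:70421555-70421804, - strand): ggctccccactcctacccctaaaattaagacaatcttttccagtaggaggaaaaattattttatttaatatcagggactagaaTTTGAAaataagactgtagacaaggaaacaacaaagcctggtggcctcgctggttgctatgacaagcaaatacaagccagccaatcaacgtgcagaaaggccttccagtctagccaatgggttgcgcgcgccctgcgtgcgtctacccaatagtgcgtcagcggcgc
Cdc6 (chr11:98907901-98908150, + strand): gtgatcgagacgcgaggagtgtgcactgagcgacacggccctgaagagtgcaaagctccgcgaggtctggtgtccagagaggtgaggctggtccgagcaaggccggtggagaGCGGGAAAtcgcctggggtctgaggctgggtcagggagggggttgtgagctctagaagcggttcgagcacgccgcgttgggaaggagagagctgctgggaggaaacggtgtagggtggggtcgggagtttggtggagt

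Whether the marked letters lay under the 300 bp of a peak differed between these genes. The Mcm5 peak (75109120 to 75109419) covered 161 of the 250 bases and both of its overlapping E2F matches. The Cdk1 peak (69352693 to 69352992) covered 80 bases before the start with both CHR matches, 71 and 15 bp before the start, and left out the E2F match. In Rbl1 the E2F match lay 18 bp before the start and outside the peak (157204643 to 157204942). The forkhead match of Ccnd3, 243 bp before the start, was also outside the peak (47504946 to 47505245). The peak next to Ccni (93206385 to 93206684) covered the forkhead match and both CHR matches, but the start of 2010109A12Rik was nearer to its centre. In all start windows of members, 6 genes had a forkhead match, and it lay inside a peak in Ccni and Mcm7. E2F matches were found in 13 members and lay inside a peak in Mcm3 and Mcm5. CHR matches were found in 17 and lay inside a peak in Ccnb2, Ccni, Cdc7 and Cdk1. The CHR match printed for Ccnb2, 167 bp before the start, was outside its peak. The Ccnb2 match inside the peak lay 4 bp after the start and is not printed.

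Motif shares were counted over whole start windows. A window was taken as under a peak when the peak covered at least 100 of its 300 bases, which was so for 20 of the 78 member windows and 2720 of all 21263. Windows end 50 bases after the start, whereas own-start peaks (defined below) had a median centre 136 bp after it over all genes. Peak sequence outside the windows was not read. Of the 69 members with a listed start, 52 had an own-start peak, so windows not under a peak include those of genes with such a peak. The shares therefore do not compare bound with unbound genes. Forkhead letters were present in 7.69% of member windows, in 7.42% of all windows, and in 6.95% of all windows under a peak. Among member windows they were in 3 of 20 under a peak (15.0%) and in 3 of 58 not under one (5.17%). E2F letters were present in 16.7% of member windows (13 of 78) and in 2.85% of all windows. Among member windows under a peak, 3 of 20 held E2F letters, and among those not under a peak 10 of 58 did, so the shares were 15.0% and 17.2%. Over all genes the shares were 5.44% of windows under a peak and 2.48% of those not under one. None of these differences was tested. CHR letters were found in 24.4% of member windows and 17.6% of all, CCAAT in 51.3% and 38.2%, and the GC box GGGCGG in 75.6% and 46.2%. Matches of different motifs may overlap, and a match is a stretch of letters and not a measured site.

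**Figure D1:**
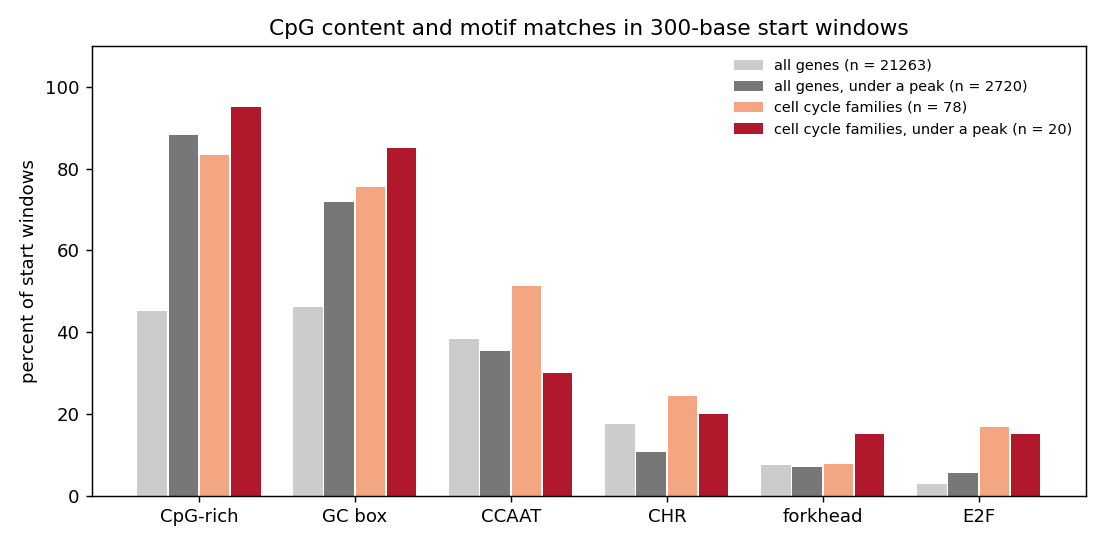
Percent of 300-base start windows (vertical axis) that were CpG-rich or held each motif, for all genes and for the cell cycle families, with and without restriction to windows under a FOXL2 peak. The forkhead share was 7.42% in all windows and 6.95% in all windows under a peak, while E2F letters were in 16.7% of windows of the families and 2.85% of all. Peak sequence outside the windows was not read.

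Most genes of these families had a FOXL2 peak. A peak centre lay in the gene or within 10 kb of it for 70 of the 84 members (83.3%, exact binomial 95% interval 73.6 to 90.6%), where 49.6% of all protein-coding genes had a peak. The median was 1 peak per member and 0 per gene over all genes. Of the members, 44 had 1 peak, 20 had 2, 5 had 3 and Rb1 had 4, and 14 had none. At least 2 peaks were counted for 31.0% of members and 14.8% of all genes. The interval treats genes as independent draws and does not cover the spread between pools of ovaries, and no difference between members and other genes was tested.

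The families stood above all genes at the gene's own start. A peak was counted there when its centre was within 1 kb of a listed start, or of either end of a gene without a listed start, and no start of another protein-coding gene was nearer. Such a peak was found at 61 of 84 members (72.6%, interval 61.8 to 81.8%) and at 34.0% of all genes. Among members with a listed start alone, 52 of 69 (75.4%) had one, beside 35.0% of all genes with a listed start. Ccne1, E2f3, Rb1, Cdc14b, Cdc73 and Cdk19 had 2 own-start peaks each (7.14% of members and 2.58% of all genes). Away from starts the share of members was close to that of all genes. A peak over 1 kb from the ends of every protein-coding gene was in the window of 12 members (14.3%, interval 7.61 to 23.6%), and 13.7% of all genes had one. When listed inner starts were also kept 1 kb away, 8 members (9.52%) and 9.30% of all genes remained. Of the 103 peaks in member windows, 67 were at the member's own start, 28 were at the start or end of another gene, and 8 were far from both.

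The strand of the listed starts gave the side on which the peaks sat. The 56 own-start peaks of members with a listed start had a median position of 174 bp after the start (quartiles -17 and 275.5 bp) and ranged from -606 to 636 bp. Of these, 40 (71.4%) lay after the start and 16 before it, and over all genes 76.6% of 6596 such peaks lay after it, at a median of 136 bp. No member had a peak at its far end. Among members at least 5 kb long with a listed start, 50 of 65 had a peak within 1 kb of a start and 0 had a peak within 1 kb of the opposite end. Over all genes of this kind 45.3% had a peak at a start and 1.30% at the opposite end.

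**Figure D2:**
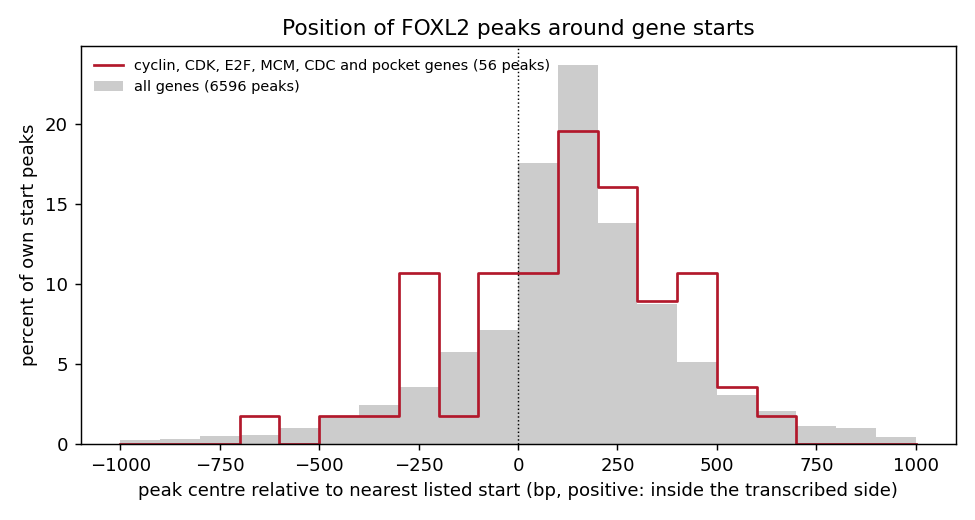
Position of peak centres around the nearest listed start in bp (horizontal axis) against the percent of own-start peaks per 100 bp (vertical axis), for 6596 peaks of all genes (grey bars) and 56 peaks of the families (red line). Both distributions are highest between 100 and 200 bp after the start, and no peak of the families lies beyond 636 bp.

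The members' start windows were also rich in CpG. A start window was called CpG-rich at a GC content of at least 50% and an observed to expected CpG ratio of at least 0.6. Of the members with a listed start, 61 of 69 (88.4%) had a CpG-rich window, and 48.3% of all genes with a listed start did. Among genes with a CpG-rich window, 48 of 61 members (78.7%, interval 66.3 to 88.1%) and 60.6% of all genes had an own-start peak. Among genes without a CpG-rich window, 4 of 8 members and 11.1% of all genes had one. The part of CpG content in the share of members with a peak was not tested. Gene length gave a further description. Of members up to 10 kb long 16 of 17 had a peak in the window, against 31.7% of all genes of that length. From 10 to 20 kb the shares were 72.7% of members and 51.6% of all genes. They were 80.0% and 56.9% from 20 to 40 kb, and 90.9% and 64.1% from 40 to 80 kb. Of members over 80 kb 12 of 14 had a peak, against 69.7% of all genes of that length.

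The G1 genes were occupied at nearly every step from cyclin D to E2F. Of the 17, 15 had a peak (88.2%) and 13 had it at their own start, beside 49.6% and 34.0% of all genes. All 11 G1 genes with a listed start had a CpG-rich window, and 60.6% of all genes with such a window had an own-start peak. The D-type cyclins differed among themselves. Ccnd3, which spans 94.6 kb of chromosome 17, had a peak 44 bp after its start and another 6421 bp after it, and a further peak lay at the start of Taf8. Ccnd1, the D-type cyclin induced by WNT and growth factor signals in many tissues, had a single peak 3616 bp outside the gene, on chromosome 7 from 144943298 to 144943597, and none at either end. Ccnd2, the D-type cyclin of adult granulosa cells, had none in its window, and the nearest lay 10.1 kb from the gene.

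Among the G1 kinases, Cdk4 had a peak 205 bp after its start and Cdk2 had a peak 201 bp after its start. The other 2 peaks counted for Cdk2 were at Pmel and Rab5b. Cdk6 spans 190.0 kb, and its single peak lay inside the annotated gene, 1226 bp before the listed start. The cyclin E genes were both occupied, Ccne1 by peaks 364 bp after and 606 bp before its start and Ccne2 by a peak inside the gene, 800 bp from its nearer end. Cdc25a, the phosphatase that activates CDK2, had a peak 530 bp after its start.

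All 3 pocket protein genes had a peak at an end or start of their own. Rb1, which spans 133.0 kb on chromosome 14, had peaks 619 bp inside and 214 bp outside the same end. Its other 2 peaks, 295 and 752 bp from an end of the nested gene Lpar6, belonged to that gene's border. The peak of Rbl1 was 258 bp before its start and that of Rbl2 212 bp after it. The E2F factors split into activators, with E2f2 (a peak 636 bp after the start) and E2f3 occupied and E2f1 without a peak, and the repressors E2f4 to E2f8, all of which were occupied. E2f3 has 2 listed starts, and a peak lay 563 bp after the first and 385 bp before the second. E2f4 had a peak 299 bp and E2f5 a peak 338 bp inside the gene from the nearer end, and a second peak of E2f5 lay at Rbis. E2f1 lies on chromosome 2 from 154559400 to 154569892, and the nearest peak was 33.7 kb away at the start of Pxmp4.

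Of 14 S phase genes 12 had a peak (85.7%) and 9 had it at their own start, beside 49.6% and 34.0% of all genes. Of the 6 subunits of the replicative helicase, Mcm3 (186 bp after the start), Mcm5 (240 bp before), Mcm6 (197 bp after) and Mcm7 (80 bp after the nearer of 2 listed starts) had a peak of their own. The other 2 peaks of Mcm7 were at Zfp113 and Cops6. The peak counted for Mcm4 was 259 bp outside the gene and 215 bp from an end of Prkdc, the gene next to it. Mcm2 was counted only through a peak at Podxl2, 9014 bp outside Mcm2. Mcm10, an initiation factor, had no peak, and the nearest lay 71.7 kb away. Cdc6, the loader of the helicase, had none within 43.4 kb.

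The helicase activators Cdc7 and Cdc45 each had a peak near a start, though that of Cdc45 may belong to its neighbour Ufd1. Cdc7, a kinase, had a peak 94 bp before the nearer of its 2 listed starts and another 6334 bp outside its far end. Cdc45 shares its start region with Ufd1, and 2 peaks lay there. One was 238 bp after the start of Cdc45 and also 2 bp from an end of Ufd1, so it cannot be assigned to 1 of the 2 genes. The other was 130 bp from the start of Ufd1, and a further peak lay at Cldn5. The repressors E2f6 (232 bp after the start), E2f7 (462 bp before) and E2f8 (249 bp after) each had 1 peak. Ccna2, the cyclin of S and G2 phase, had a peak inside the gene at 1370 bp from its nearer end.

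Of 14 mitotic genes 12 had a peak (85.7%) and 11 had it at their own start, beside 49.6% and 34.0% of all genes. The core of the mitotic kinase was occupied close to its starts, with Cdk1 at 70 bp, Ccnb2 at 96 bp and Ccnb1 at 108 bp after the start. Ccnf, a cyclin that targets proteins for breakdown, had a peak 159 bp after its start. Cdc20, the activator of the anaphase-promoting complex, had one at 310 bp, and its other peak was at Elovl1. The CDC-named subunits of that complex were occupied, with Cdc26 at 110 bp, Cdc16 at 264 bp and Cdc27 at 398 bp after the start, and Cdc23 at 254 bp inside its nearer end. Second peaks of Ccnb1, Cdc16 and Cdc23 lay at Cenph, Upf3a and Kif20a.

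Of the mitotic phosphatase genes, Cdc14a and Cdc14b were occupied at listed starts inside the gene as well as elsewhere. Cdc14b had a peak 443 bp after its first start and another 266 bp before its second listed start, 26184 bp inside the gene. Cdc14a had a peak 179 bp after the second of 3 listed starts, 4848 bp inside the gene, and another 13073 bp after the third. Cdc25c was counted only through a peak at Fam53c, 7621 bp outside the gene. Cdc25b had no peak, with the nearest 11.8 kb away at Ap5s1. Ccnb3, a cyclin of germ cells on the X chromosome, had none within 278 kb.

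**Figure D3:**
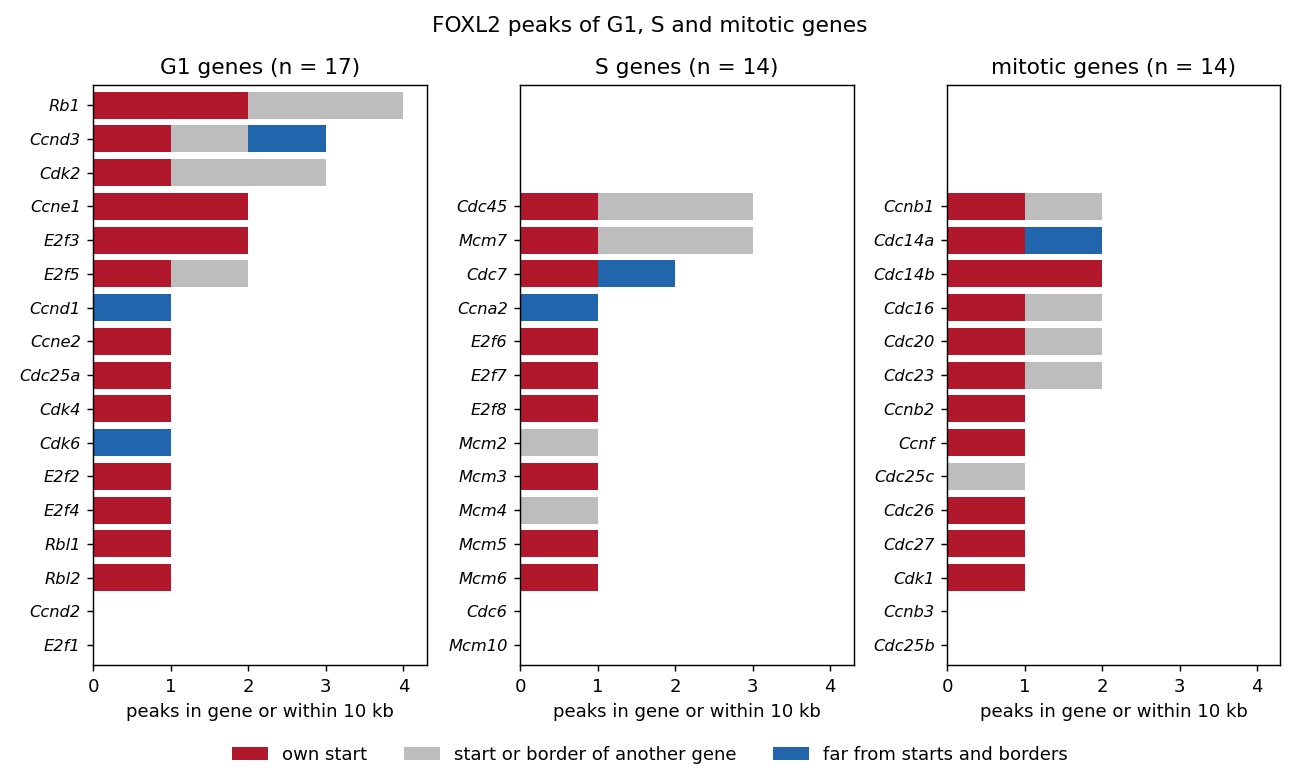
Number of FOXL2 peaks in each gene or within 10 kb (horizontal axis) for the 17 G1, 14 S and 14 mitotic genes, with peaks at the own start in red, at another gene in grey and far from starts and ends in blue. Each group has 2 genes without a peak, and Rb1 has the most with 4.

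The shares of the phases were set side by side without a test. Any peak was found for 88.2% of G1 genes (interval 63.6 to 98.5%), 85.7% of S genes (57.2 to 98.2%) and 85.7% of mitotic genes (57.2 to 98.2%). Own-start peaks were found for 76.5% (50.1 to 93.2%), 64.3% (35.1 to 87.2%) and 78.6% (49.2 to 95.3%). Each interval contains the shares of the other phases, and the intervals are wide enough to leave room for sizeable differences. Peaks over 1 kb from every gene end were counted for 4 G1 (23.5%), 2 S (14.3%) and 3 mitotic genes (21.4%), beside 13.7% of all genes. When listed starts were also kept 1 kb away, 3 G1 (17.6%), 2 S (14.3%) and 1 mitotic gene (7.14%) remained, beside 9.30% of all genes. By family, any peak was counted for 21 of 25 cyclins, 14 of 18 CDKs, 7 of 8 E2F genes, 7 of 9 MCM genes, 18 of 21 CDC genes and 3 of 3 pocket protein genes. Own-start peaks were found for 18 cyclins, 12 CDKs, 7 E2F, 5 MCM and 16 CDC genes. Beside these phases and families, 49.6% of all genes had any peak and 34.0% had an own-start peak. Among all genes with a CpG-rich start window, 60.6% had an own-start peak, and the MCM share was 55.6%.

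**Figure D4:**
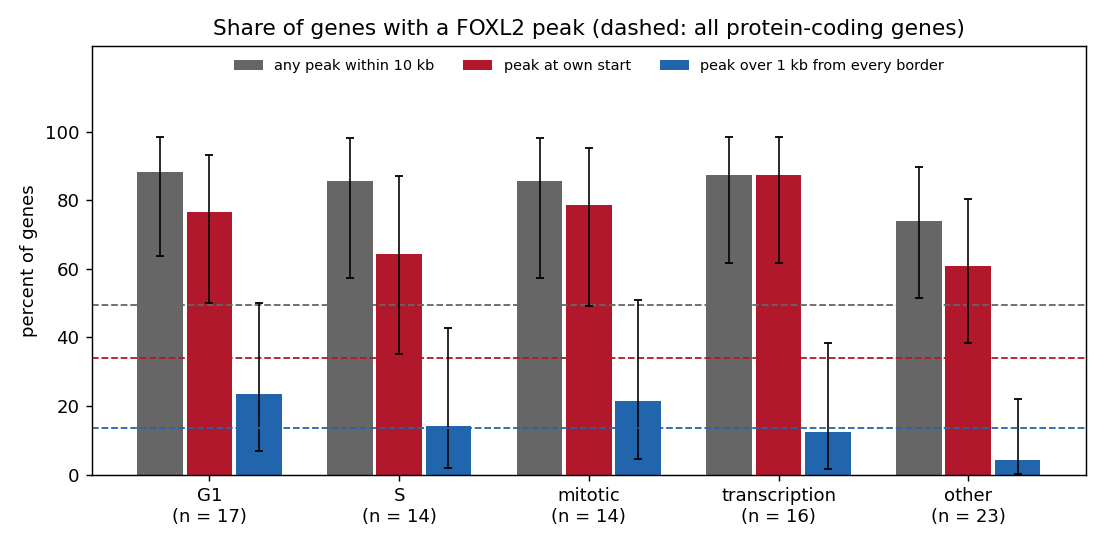
Percent of genes (vertical axis) with any peak within 10 kb, with a peak at the own start and with a peak over 1 kb from every gene end, for the 5 groups of members. Error bars are exact 95% intervals, dashed lines give all protein-coding genes (49.6%, 34.0% and 13.7%), and the intervals of the groups overlap.

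Cyclins and CDKs of transcription form complexes that phosphorylate RNA polymerase II or belong to Mediator. Of the 16 genes of this group, which includes Cdc73, 14 had a peak and all 14 had it at their own start (87.5%). Over all genes 49.6% had a peak and 34.0% had one at the own start. At least 2 peaks were counted for 9 (56.2%), beside 14.8% of all genes. For Ccnc, Ccnk, Ccnl2, Ccnt1, Cdk8 and Cdk12 every further peak was at the start or end of another gene. The kinase of general initiation, Cdk7, had a peak 14 bp before its start, and its cyclin Ccnh had one 144 bp inside the gene. The Mediator kinases Cdk8 (62 bp before the start) and Cdk19 (337 bp outside and 491 bp inside the same end) and their cyclin Ccnc (135 bp before) were occupied. So were the elongation kinases Cdk12 (283 bp before) and Cdk13 (393 and 1375 bp after) and their cyclin Ccnk (75 bp before), whose start lies close to that of Setd3. Cdc73, a subunit of the elongation complex PAF1, had peaks 202 bp before and 436 bp after its start.

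For the elongation factor P-TEFb, the list held peaks at the cyclin genes and none in the window of the kinase gene. Ccnt1 had a peak 413 bp after its start and Ccnt2 one at 220 bp, whereas the nearest peak to Cdk9 was 44.5 kb away. Ccnl2, a cyclin linked to splicing, had a peak 197 bp after its start and 2 others at Mrpl20 and Aurkaip1, and its paralogue Ccnl1 had none within 12.5 kb. Cdk10 and its cyclin Ccnq each had 1 peak, at 123 and 137 bp after the start. Second peaks of Ccnc, Ccnt1, Cdk8, Cdk12 and Ccnk lay at Tstd3, Kansl2, Rnf6, Med1 and Setd3.

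Of the other 23 members, 17 had a peak (73.9%) and 14 had it at their own start (60.9%). Over all genes these shares were 49.6% and 34.0%, and 60.6% of all genes with a CpG-rich start window had an own-start peak. The own-start peaks of this group were those of Ccng1, Ccng2, Ccnj, Ccno, Ccny, Cdk16, Cdk17, Cdk20, Mcm9, Cdc34, Cdc37, Cdc42, Cdc5l and Cdc123. Ccng2, a cyclin of cells that leave the cycle, had its peak 16 bp before the start, and Ccno, a cyclin of multiciliated cells, 20 bp before. Cdc42 is a small GTPase of cell polarity and had a peak 217 bp after the start. Mcm9, a helicase subunit of recombination repair, had a peak 449 bp after the start and another at the nested gene Asf1a, while its partner Mcm8 had none within 129 kb. Cdc37, a chaperone of kinases, had a peak 169 bp after the start and another at Tyk2. The peaks counted for Ccni and Cdc40 lay nearer to the starts of 2010109A12Rik and Wasf1.

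The 8 peaks far from every start and end were spread over as many genes. They lay at Ccnd1, Ccnd3, Cdk6, Ccna2, Cdc7, Cdc14a, Cdk13 and Cdk14. Cdk14, a kinase of WNT signalling, spans 577 kb on chromosome 5, and its only peak (5261695 to 5261994) was 118407 bp after its listed start. Those of Cdk13, Cdk6 and Ccna2 were less than 2 kb from a start or end, at 1375, 1226 and 1370 bp.

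**Figure D5:**
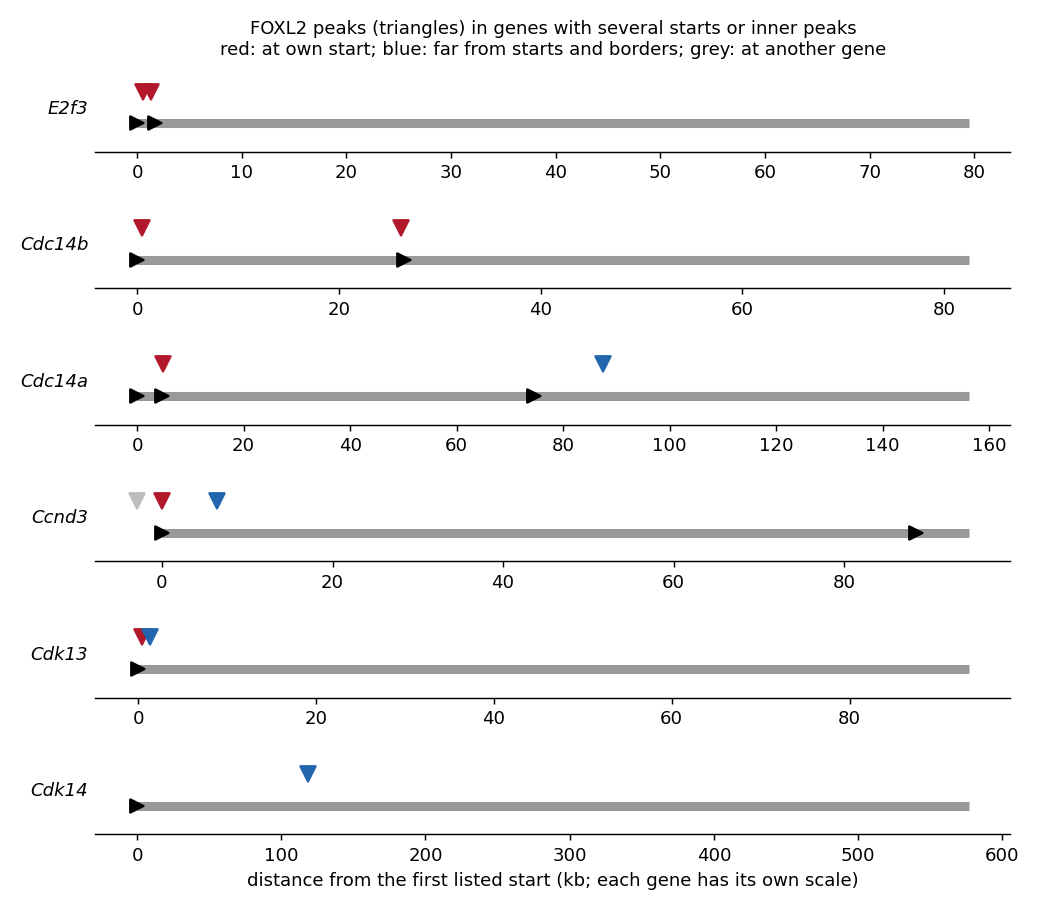
Gene bodies (grey bars) of 6 members with listed starts (black arrowheads) and FOXL2 peaks (triangles) against the distance in kb from the first listed start, each gene on its own scale. The peaks of E2f3 and Cdc14b lie beside 2 starts each, Cdc14a and Ccnd3 have an inner peak, and that of Cdk14 is 118407 bp after the start.

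No peak was found for 14 members, namely Ccnd2, E2f1, Cdc6, Mcm10, Ccnb3, Cdc25b, Ccnl1, Cdk9, Ccna1, Cdc20b, Cdk15, Cdk18, Cdk5 and Mcm8. Among them, Ccna1 is known from male germ cells and Ccnb3 from germ cells, whereas Cdc6 and Mcm10 serve replication in all dividing cells. Ccno, a cyclin of multiciliated cells, did have a peak, and a link between tissue range and the lack of a peak was not tested. A CpG-rich start window was listed for 9 of the 14, and 3 had listed windows that were not CpG-rich. The nearest peak was between 10.1 kb (Ccnd2) and 278 kb (Ccnb3) from the gene. Just outside the 10 kb limit were Ccnd2, Cdc25b at 11.8 kb and Ccnl1 at 12.5 kb. Just inside it were peaks 9534 bp from Cdk12, 9429 bp from Cdk8 and 9014 bp from Mcm2, each at the start of another gene.

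Other genes of the same pathway were counted from a list of 48, made up of E2F partners, origin and replication factors, checkpoint kinases, ubiquitin ligase subunits and mitotic kinases. A peak was in the window of 39 (81.2%) and at the own start of 27 (56.2%), beside 49.6% and 34.0% of all genes. The mitotic transcription factor gene Foxm1, itself a forkhead gene, had the most with 3, of which 1 had Foxm1 as its nearest gene. Anapc13, Anapc5, Dbf4, Fbxo5, Fbxw7, Orc4 and Skp2 had 2 each in their windows, as did Wee1, the kinase that restrains CDK1. The longest genes of this list without a peak were Orc3 (48.2 kb), Bub1b (43.4 kb), Ttk (37.7 kb), Anapc4 (32.6 kb) and Plk1 (10.4 kb). Of the 7 CDK inhibitor genes, Cdkn2c had 4 peaks, Cdkn1b 3, and Cdkn1c, Cdkn2a and Cdkn2d 1 each, and Cdkn1a and Cdkn2b had none.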

How the data were processed

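FOXL2 ChIP and input chromatin of E14.5 mouse ovaries were sequenced in 2 samples each. Per the submitters' processing notes, Bowtie 1.2, Picard 1.110, bedtools 2.24.0, HOMER 4.9 and build mm10 were used, while their roles, the peak threshold and any pooling of replicates were not known here. The deposited values are peak positions in bp, so depth is unknown. Of the 11438 peaks, the 3 on scaffolds were left out. Peak centres were assigned to RefSeq genes of GRCm38.p6, with listed starts for 17492 of 21887 genes and either end for the others. Members, lists and the naming rule (every G1, S and mitotic gene, and other members with 2 or more peaks or a peak over 1 kb from gene ends) were chosen with earlier results of these data known. Positions are also given for Cdk7, Ccnh, Ccnt2, Cdk10, Ccnq, Ccng2, Ccno and Cdc42, which fall outside this rule and were chosen after their values were seen. No test was run, since 1 list has no replicates and genes are not replicates. Intervals are exact binomial (95%, scipy 1.17.1) and cover counting error only. The code of the assignment was checked with simulated peaks placed exactly on listed starts, and 200 of 200 planted starts among 21887 genes were recovered. This does not measure how well peaks farther from a start, or at genes without a listed start, are assigned. Alternatives were other windows and distances, nearest-gene assignment and other phase lists.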

Additional observations from a re-analysis of the deposited data

How the results depend on the processing

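Of 23 alternative settings over 6 results, 20 stayed within the exact interval of the reported share and 3 did not. For the phase lists these intervals are wide (57.2 to 98.2% for S genes), so staying within them is a weak check. A window of 50 kb gave a peak to 95.2% of members, 100.0% of G1 genes and 67.5% of all genes. Peaks over 5 kb from every gene end were counted for 5.95% of members and 6.86% of all genes. With peaks given to the nearest gene only, 77.4% of members and 40.3% of all genes had one, as did 71.4% of S genes. The restrictions to listed starts, and the separation by CpG content, were chosen after seeing the data. A stricter threshold was not run, because the list has no score, and no replicate could be left out of a single list. No paired analysis was possible because both ChIP replicates share 1 list of peaks, which holds no input values, and no result comes from a test.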

Other observations

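Start windows of the phases differed in their letters. E2F letters were present in 42.9% of the 14 S windows, 35.7% of the 14 G1 windows, 6.67% of the 15 mitotic windows and 0 of the 14 transcription-kinase windows. CHR letters were present in 46.7% of mitotic, 42.9% of S, 21.4% of G1 and 0% of transcription-kinase windows. Over all start windows the shares were 2.85% for E2F and 17.6% for CHR letters. The phase shares rest on few windows, and 1 gene can give more than 1 of them, as Cdc14a did for CHR. Windows of 1 gene can overlap, and these differences were not tested. Among all protein-coding start peaks, 11.1% had the start of a second gene within 1 kb, and among those of members 7 of 67 (10.4%) did, at E2f4, Cdc45, Mcm7, Cdc26, Cdc27, Cdc123 and Ccnk.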
